A study of Mus musculus with 10 samples.

Results

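The 45 genes described here encode proteins of mitosis and the spindle: the kinases and cyclins of mitotic entry, the chromosomal passenger complex, the spindle assembly checkpoint, regulators of anaphase, kinetochore proteins, spindle motors, cytokinesis proteins and proteins of chromosome structure. They were taken from a list of gene symbols. For all 45, some probe set annotated to that symbol alone exceeded the 40th percentile of signals on 2 or more arrays, so all were measured, among 14840 genes in all. Gene expression had been measured on 10 arrays of cultured mouse mammary tumour cells, 2 for each of 5 lines. Line E is epithelial and was taken from an adenocarcinoma that arose spontaneously in the mammary gland of a female FVB/N-TgN(MMTVneu)202Mul mouse, whose neu transgene is driven by the MMTV promoter, which is active in mammary epithelium. The lines called M1 to M4 are mesenchymal, and each came from a tumour that relapsed in a female FVB/N mouse after E cells had been injected, so by the labels all 5 lines go back to E cells. The labels give no treatment and no age, and they give the same culture conditions for all lines, in RPMI with serum.

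A cell that enters mitosis switches on cyclin-dependent kinase 1 with its cyclin partners, condenses its chromosomes, attaches them through kinetochores to a bipolar spindle and waits at the spindle assembly checkpoint until all are attached. The anaphase-promoting complex then marks securin and cyclin B for destruction, the sister chromatids part, and a contractile ring at the spindle midzone divides the cell. The mRNAs of many of these proteins are low in resting cells and peak in the G2 and M phases, and several of them, Mki67 above all, are used as markers of dividing tumour cells. In RNA from a whole culture, a smaller share of dividing cells and less of an mRNA in each dividing cell cannot be told apart.

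Each value is the signal of 1 probe set on 1 array, on a linear scale. Where a gene had several, the brightest on average stood for it. Changes are differences between line means of log2(signal + 32), given with the standard error from limma. A gene was called higher or lower when the adjusted p of limma (Benjamini-Hochberg, 14840 genes) was below 0.05 and the difference at least 2-fold. The labels do not say whether the arrays of 1 line were separate cultures, so the p-values measure only the spread between those arrays, which may be technical. There is 1 epithelial line, so no test covers variation among such lines. Every comparison with E uses the same 2 E arrays.

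Over all probe sets, correlations were 0.992 to 0.993 within a line and 0.873 to 0.976 between lines. The marker lists moved with the labels as sums, but not gene by gene. The summed signal of 6 epithelial markers was 46320 to 49110 in E, while the M lines had 643 to 8808, with 1 of the 6 above a signal of 100. The sum of 6 mesenchymal markers was 9342 to 10040 in E, and the M lines had 32380 to 45310. Epcam, an epithelial adhesion molecule, had a mean of 10360 in E and of 2.25 to 3.55 in the M lines, and S100a4, a mesenchymal calcium-binding protein, had 9.95 in E and 10210 to 13810. Krt8, an epithelial keratin, had 7959 in E and 7947, 5529 and 4538 in M2, M3 and M4, against 57.0 in M1. Vim, a mesenchymal filament protein that made up most of the mesenchymal sum in E, had 9644 in E and 7488 in M3, and 11990 to 16510 in the other relapse lines. Sums of leukocyte markers (5 of 6 with a probe set) were 91.2 to 192 and of endothelial markers (4 of 4) 17.5 to 122 on all arrays. Total brightness differed between arrays, with trimmed means of 181 in M4 to 299 in E. The M3 arrays, at 198 and 200.1, lay above those of M4 at 181 and 190.2.

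Promoter windows of the genes were read from the RefSeq table for GRCm38.p6, each running from 250 bases before to 50 bases after an annotated gene start. Of the 45 genes, 38 had an entry, with 40 windows in all. Ccna2, Cdc25c, Pbk, Aurkb, Incenp, Tpx2 and Kif20a had none in that table. Promoters of genes that peak late in the cell cycle are known for a pair of short elements: CCAAT boxes, bound by the factor NF-Y, and the cell cycle genes homology region, whose core reads TTTGAA and which binds the DREAM and MuvB complexes. Both motifs were searched on both strands, and a match of one can share at most 1 end letter with a match of the other. TTTGAA was found for 28 of the 38 genes (73.7%), against 17.9% of all 32851 windows and 14.7% of the 11895 tested genes with a window. CCAAT was found for 28 of the 38 (73.7%), against 37.4% of all windows and 42.1% of the tested genes. Both together were found for 25 of the 38 (65.8%), against 6.95% of all windows and 5.71% of the tested genes. Within 50 bases on either side of the start, a span chosen after the positions had been seen, TTTGAA was found for 26 genes (68.4%), against 3.79% of the tested genes. Birc5, Mad2l1, Melk, Ncaph, Nuf2, Nusap1 and Pttg1 had neither motif in the window. These matches are descriptions of letters and not measured binding sites.

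Windows of 8 genes are shown: the 7 furthest below E in line M3, which are Mki67, the condensin subunit Ncaph, cyclin B2 (Ccnb2), Nusap1, Cdca3, Bub1 and polo-like kinase 1 (Plk1), and Racgap1, which was called higher in line M1. Each sequence is written 5′ to 3′ on the strand of the gene, with matches of either motif on either strand in capitals. The windows lie at chr2:119618048-119618347 (Nusap1, plus strand), chr2:127831810-127832109 (Bub1, minus strand), chr9:70421505-70421804 (Ccnb2, minus strand), chr7:122159185-122159484 (Plk1, plus strand), chr6:124829926-124830225 (Cdca3, plus strand), chr7:135716330-135716629 (Mki67, minus strand), chr15:99651607-99651906 (Racgap1, minus strand) and chr2:127133905-127134204 (Ncaph, minus strand) of GRCm38.p6.
Mki67: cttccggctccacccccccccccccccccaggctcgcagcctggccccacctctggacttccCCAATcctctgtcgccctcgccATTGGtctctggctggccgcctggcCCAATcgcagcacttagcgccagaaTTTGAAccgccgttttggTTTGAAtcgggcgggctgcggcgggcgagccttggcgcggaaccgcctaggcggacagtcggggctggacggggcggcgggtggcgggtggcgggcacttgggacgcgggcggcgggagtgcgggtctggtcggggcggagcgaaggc
Ncaph: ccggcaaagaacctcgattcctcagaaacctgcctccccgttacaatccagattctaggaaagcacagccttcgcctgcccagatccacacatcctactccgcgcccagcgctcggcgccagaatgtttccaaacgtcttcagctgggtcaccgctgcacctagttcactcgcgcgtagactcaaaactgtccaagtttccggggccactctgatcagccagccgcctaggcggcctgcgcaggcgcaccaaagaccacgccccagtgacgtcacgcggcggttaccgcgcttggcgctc
Ccnb2: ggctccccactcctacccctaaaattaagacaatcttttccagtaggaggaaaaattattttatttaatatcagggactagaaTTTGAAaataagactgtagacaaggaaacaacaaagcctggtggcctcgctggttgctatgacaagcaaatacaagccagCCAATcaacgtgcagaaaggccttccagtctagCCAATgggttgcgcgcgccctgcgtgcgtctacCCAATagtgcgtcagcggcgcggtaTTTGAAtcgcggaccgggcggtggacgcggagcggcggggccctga
Nusap1: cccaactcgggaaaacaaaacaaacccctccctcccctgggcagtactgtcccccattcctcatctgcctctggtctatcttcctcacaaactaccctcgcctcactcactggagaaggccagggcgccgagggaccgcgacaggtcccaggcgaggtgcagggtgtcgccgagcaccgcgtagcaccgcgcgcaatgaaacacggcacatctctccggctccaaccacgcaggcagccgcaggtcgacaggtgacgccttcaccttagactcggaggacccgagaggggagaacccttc
Cdca3: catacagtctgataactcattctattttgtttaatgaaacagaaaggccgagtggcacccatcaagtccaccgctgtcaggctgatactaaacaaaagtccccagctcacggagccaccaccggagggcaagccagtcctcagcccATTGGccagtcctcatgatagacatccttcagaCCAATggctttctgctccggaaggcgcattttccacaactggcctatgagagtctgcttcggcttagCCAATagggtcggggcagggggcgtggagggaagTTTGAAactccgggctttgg
Bub1: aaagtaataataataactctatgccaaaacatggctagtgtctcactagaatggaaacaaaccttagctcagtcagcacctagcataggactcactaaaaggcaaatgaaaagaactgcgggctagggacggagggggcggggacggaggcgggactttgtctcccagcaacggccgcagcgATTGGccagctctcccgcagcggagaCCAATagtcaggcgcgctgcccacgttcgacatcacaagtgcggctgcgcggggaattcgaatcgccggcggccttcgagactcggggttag
Plk1: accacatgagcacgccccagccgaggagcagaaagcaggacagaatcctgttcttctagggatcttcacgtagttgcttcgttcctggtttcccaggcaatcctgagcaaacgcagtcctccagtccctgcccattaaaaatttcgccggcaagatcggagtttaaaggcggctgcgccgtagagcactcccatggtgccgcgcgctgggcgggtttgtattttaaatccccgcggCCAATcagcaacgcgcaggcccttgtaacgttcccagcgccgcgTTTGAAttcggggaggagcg
Racgap1: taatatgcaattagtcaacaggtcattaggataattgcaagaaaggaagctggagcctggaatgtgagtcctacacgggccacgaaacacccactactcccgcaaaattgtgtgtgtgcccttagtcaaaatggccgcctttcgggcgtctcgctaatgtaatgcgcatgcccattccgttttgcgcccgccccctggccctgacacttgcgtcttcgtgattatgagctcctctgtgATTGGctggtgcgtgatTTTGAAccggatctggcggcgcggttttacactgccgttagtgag

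In Ccnb2 the TTTGAA nearest the start began 4 bases after it, behind 3 CCAAT motifs that began 87, 54 and 21 bases before it, at spacings of 33 bases. Cdca3 had the same spacing of 33 bases between its first 2 CCAAT motifs, 104 and 71 bases before the start, and a TTTGAA 30 bases after it. Plk1 and Racgap1 each had 1 of each motif, with TTTGAA 30 and 5 bases after the start. Mki67 had 2 TTTGAA and 3 CCAAT motifs, all of them before the start. Bub1 had 2 CCAAT motifs, 68 and 42 bases before the start, and no TTTGAA, and Ncaph and Nusap1 had neither. The median difference between M3 and E was -2.66 for the 28 genes with TTTGAA and -2.65 for the 10 without, which ran from -3.79 (Ncaph) to -1.40 (Pttg1). It was -2.70 for the 28 genes with CCAAT and -2.49 for the 10 without.

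All 45 genes were lower in line M3 than in line E. The median difference was -2.74 on the log2 scale, and single genes ran from -4.60 (Mki67) to -1.40 (Pttg1), which in folds of signal + 32 is 24.2 to 2.63. All 45 were called by limma, the highest adjusted p being 6.02e-11. Over all 14840 genes 19.8% were called lower in M3 and 7.7% higher, and the median difference was -0.25. For all 45 genes both M3 arrays lay below the other 8 arrays, as they did for 15.8% of all genes, and M3 had the lowest of the 5 line means, as for 28.3% of all genes. The median log2 value of the 45 genes was 7.47 and 7.50 on the M3 arrays and between 9.86 and 10.6 on the other 8. Over all genes that median was 7.39 on both M3 arrays, above the 7.28 and 7.33 of the M4 arrays.

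**Figure D1:**
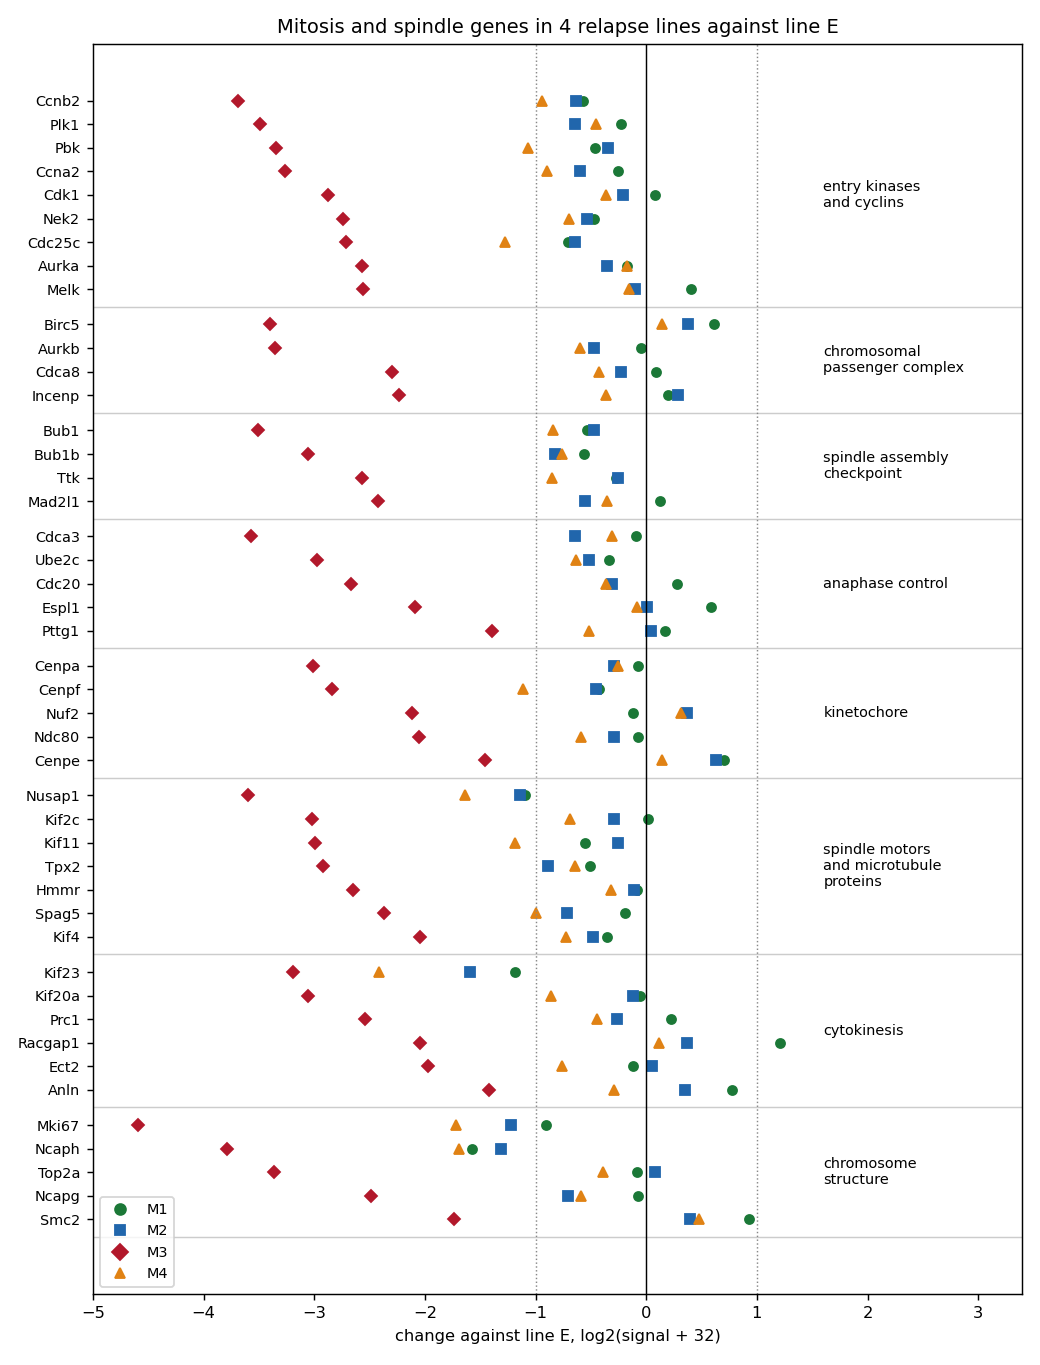
Difference of each relapse line from line E for the 45 genes, in log2(signal + 32), by role; each marker is a line mean of 2 arrays minus the E mean of 2, and dotted lines mark 2-fold. The red diamonds of M3 lie left of every other line for all 45 genes, between -4.60 for Mki67 and -1.40 for Pttg1, while the other lines scatter around and below 0.

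M3 also stood apart from the other relapse lines. The differences between relapse lines use no E array, but the E arrays enter the shared estimate of spread behind the p-values. In limma's moderated F test across M1 to M4, 45 of 45 genes were called (adjusted p under 0.05 and at least 2-fold between the highest and lowest line means), against 22.4% of all genes. The same 45 were called in at least 1 of the 6 pairs of M lines, which held for 22.4% of all genes. All 45 were higher in M1 than in M3 (background 8.44%), with a median difference of 2.55, and all 45 were higher in M2 than in M3 (background 6.05%), with a median of 2.41. Against M4, 43 were lower in M3 (background 4.56%), with a median of -2.20. Not called were Pttg1, at -0.88, and Kif23, at -0.78. Among the other 3 lines few genes passed. Kif23, Racgap1 and Anln were higher in M1 than in M4 (background 6.83%), by 1.23, 1.09 and 1.06. Under the quantile and hybridization control scalings none of these 3 was called, and under median centring only Kif23 was. None of the 45 passed for M1 against M2 (background 4.54% in either direction) or M2 against M4 (background 6.32%). At an unadjusted limma p under 0.05 with no minimum fold, M1 was above M2 for 19 genes and below it for 1 (17.5% and 15.9% of all genes), and M2 was above M4 for 20 and below it for 1 (37.6% and 4.93% of all genes).

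**Figure D2:**
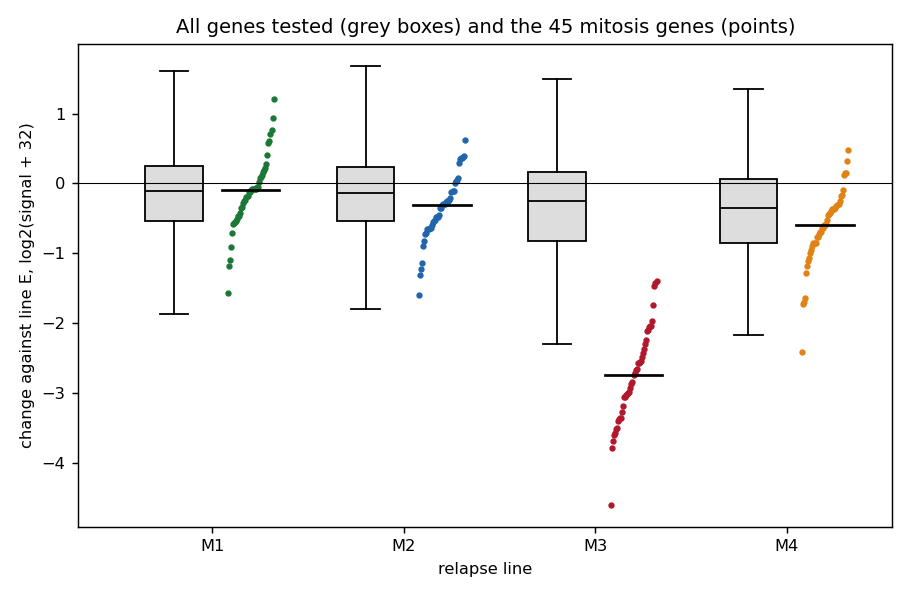
Difference from line E in log2(signal + 32) for each relapse line; grey boxes give the median, quartiles and 5th to 95th percentiles of all 14840 genes, and points are the 45 mitosis genes with their median as a bar. The medians of the 45 genes were -0.09 (M1), -0.31 (M2), -2.74 (M3) and -0.59 (M4), against -0.11, -0.14, -0.25 and -0.35 for all genes.

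Measures of RNA and array quality moved with M3 in part. The ratio of 3′ to 5′ probe set signal of Actb was highest on the M3 arrays, at 1.29 and 1.38 against 1.16 to 1.25 on the others, and that of Gapdh was lowest there, at 0.790 and 0.769 against 0.813 to 0.853. Their part in the result was not tested. The geometric mean of the hybridization controls was 1249 and 1251 on the M3 arrays, within the range of 1067 to 1648 on the others. After scaling to these controls all 45 genes were again called lower in M3. With median centring the count was again 45. With quantile normalization it was 43, without Pttg1 and Cenpe. Leaving out either M3 array left it at 45. The size of the change depended on the pseudocount, since mean M3 signals went down to 43.7 (Cdc25c): the median was -2.91 with 16 and -2.56 with 64, with 45 genes called in both.

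The 9 entry kinases and cyclins were all lower in M3, by -3.69 to -2.56. Ccnb2 (probe set 1450920_at), cyclin B2, an activating partner of Cdk1, had signals of 2260 and 2108 in E, 1453 and 1458 in M1, 1540 and 1262 in M2, 132 and 148 in M3, and 1079 and 1160 in M4. All M line arrays were below both E arrays and the M3 arrays were far below the rest, with a difference of -3.69 ± 0.15 (SE) from E. Cdc25c (1456077_x_at), the phosphatase that removes inhibitory phosphates from Cdk1, had 471 and 455 in E, 263 and 279 in M1, 330.2 and 244 in M2, 47.0 and 40.4 in M3, and 172.5 and 173 in M4. Here M4 was also called lower, by -1.27, and M3 by -2.71. The catalytic subunit Cdk1 stood at -2.87 in M3 and cyclin A2 (Ccna2) at -3.26. Plk1, which drives centrosome maturation and mitotic entry, stood at -3.49, and the spindle pole kinase Aurka at -2.57. The centrosome kinase Nek2 (-2.74) and the kinases Melk (-2.56) and Pbk (-3.35) complete the group. Pbk was the other member called lower in M4, by -1.06.

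The 4 subunits of the chromosomal passenger complex, which corrects wrong attachments of chromosomes to the spindle, were called lower in M3 and in no other line. Aurkb (1424128_x_at), its kinase, had signals of 1027 and 984 in E, 1001 and 941 in M1, 815 and 624 in M2, 61.6 and 77.3 in M3, and 633 and 675 in M4. M1 and E overlapped, and M3 was 10.2-fold below E on the scale of signal + 32 (-3.36 ± 0.16). Birc5 (1424278_a_at), survivin, had 2331 and 2171 in E, 3538 and 3366 in M1, 3209 and 2676 in M2, 183 and 187 in M3, and 2419 and 2564 in M4. Its pattern ran both ways: the arrays of M1, M2 and M4 all lay above those of E, with differences of 0.61, 0.38 and 0.14 that did not reach the 2-fold threshold, and M3 was lower by -3.40 ± 0.13. Birc5 had the widest range of the 45 genes over the M lines, 4.01 on the log2 scale. Cdca8 (1436847_s_at), borealin, had 1977 and 1617 in E, 1946 and 1859 in M1, 1776 and 1300 in M2, 346 and 332 in M3, and 1294 and 1346 in M4. M1 and M2 overlapped E, and M3 was lower by -2.29 ± 0.15. Incenp, the scaffold of the complex, stood at -2.24 in M3.

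The spindle assembly checkpoint holds back anaphase while any kinetochore is unattached. The 4 of the 45 genes that were grouped under it were also called lower in M3 only. Bub1 (1424046_at), a checkpoint kinase at the kinetochore, had signals of 1668 and 1437 in E, 1086 and 1033 in M1, 1248 and 982 in M2, 113 and 101 in M3, and 834 and 861 in M4. Bub1b (1416961_at), BubR1, a subunit of the mitotic checkpoint complex, had 1027 and 1023 in E, 659 and 714 in M1, 592 and 542 in M2, 87.3 and 104 in M3, and 601 and 584 in M4. For both genes every M array was below both E arrays. The differences were -0.85 to -0.47 (Bub1) and -0.82 to -0.56 (Bub1b) in M1, M2 and M4, short of 2-fold, and -3.51 ± 0.15 and -3.05 ± 0.16 in M3. The kinase Ttk, which starts the checkpoint signal, stood at -2.57 in M3, and Mad2l1, its effector, at -2.42.

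Of the 5 genes of anaphase control, Cdca3 (1452040_a_at), an F-box-like protein linked to the destruction of the Wee1 kinase, had the largest difference from E in M3. It had signals of 1515 and 1459 in E, 1346 and 1437 in M1, 1091 and 805 in M2, 106 and 86.8 in M3, and 1182 and 1208 in M4. The signals of M1 and M4 were close to those of E, with differences of -0.09 and -0.31, and M3 was lower by -3.57 ± 0.16. Ube2c (1452954_at), the ubiquitin-conjugating enzyme of the anaphase-promoting complex, had 4815 and 4658 in E, 3759 and 3728 in M1, 3481 and 3121 in M2, 587 and 562 in M3, and 2887 and 3201 in M4. It was called lower in M3 alone, by -2.98 ± 0.12. The activator Cdc20 stood at -2.67 and separase (Espl1), which cuts cohesin, at -2.09. Securin (Pttg1), which holds separase inactive until anaphase, changed least of the 45 genes in M3, with means of 3578 in E and 1334 in M3 and a difference of -1.40 ± 0.12.

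The 5 kinetochore genes were lower in M3 by -3.01 to -1.46. Cenpa (1450842_a_at), the histone variant that marks centromeres, had signals of 2041 and 1966 in E, 1867 and 1937 in M1, 1848 and 1436 in M2, 224 and 215.5 in M3, and 1616 and 1730 in M4. Cenpf (1427161_at), a protein of the outer kinetochore, had 954 and 786 in E, 671 and 605 in M1, 744 and 523 in M2, 103 and 84.6 in M3, and 380.3 and 385 in M4. Cenpa was called lower in M3 alone, and Cenpf also in M4, by -1.11. Cenpe (1435005_at), a kinesin that carries chromosomes to the spindle equator, had 402 and 339.9 in E, 653 and 594 in M1, 627 and 554 in M2, 107 and 122 in M3, and 405 and 419 in M4. Its M1, M2 and M4 arrays were above both E arrays, by 0.70, 0.63 and 0.14, short of 2-fold, and M3 was lower by -1.46 ± 0.16. The microtubule-binding pair Ndc80 and Nuf2 stood at -2.06 and -2.12 in M3.

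All 7 genes for spindle motors and microtubule proteins were lower in M3, by -3.60 to -2.04. Nusap1 (1416309_at), which bundles spindle microtubules near chromosomes, had signals of 2209 and 2047 in E, 999 and 959.6 in M1, 983 and 912 in M2, 145 and 146 in M3, and 608 and 722 in M4. It was called lower in all 4 relapse lines, by -1.09, -1.14, -3.60 and -1.64. Kif11 (1435306_a_at), the motor that pushes the spindle poles apart, had 730.2 and 564 in E, 435 and 422 in M1, 643 and 442 in M2, 50.4 and 55.0 in M3, and 259 and 270.3 in M4. It was called lower in M3, by -2.99 ± 0.17, and in M4, by -1.19. Kif2c, a microtubule depolymerase, stood at -3.02 in M3, Tpx2, an activator of Aurka, at -2.92, and Hmmr at -2.65. The spindle protein Spag5 stood at -2.37 and the chromokinesin Kif4 at -2.04.

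**Figure D3:**
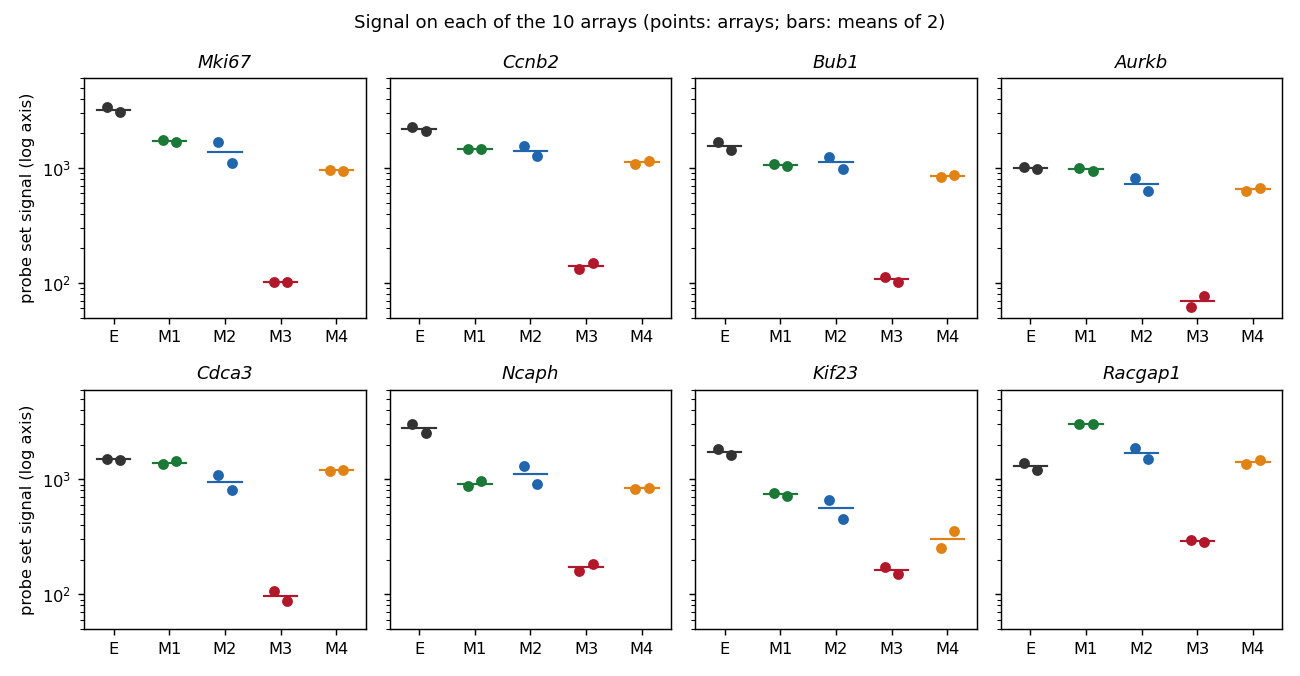
Signal of 8 of the 45 genes on each of the 10 arrays, on a log axis; points are arrays and bars are means of the 2 arrays of a line. For all 8 genes both M3 arrays lie below the other 8 arrays; Racgap1 is highest in M1, at 3030 and 3010, and Kif23 has its mean signals in the order E, M1, M2, M4 and M3.

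The 6 cytokinesis genes were lower in M3 by -3.19 to -1.42. Kif23 (1455990_at), the motor subunit of centralspindlin, the complex that organises the spindle midzone, had signals of 1831 and 1626 in E, 766 and 718 in M1, 666 and 456 in M2, 173 and 149 in M3, and 251 and 354 in M4. No M array reached an E array, and Kif23 was called lower in all 4 lines, by -1.18, -1.59, -3.19 and -2.41. Racgap1 (1451358_a_at), the other subunit of the same complex, had 1377 and 1211 in E, 3030 and 3010 in M1, 1870 and 1506 in M2, 294 and 286 in M3, and 1354 and 1460 in M4. It was the only one of the 45 genes called higher in a relapse line at the deposited scaling, by 1.21 ± 0.14 in M1 (limma, adjusted p = 3.48e-10), and it was lower in M3 by -2.04. Kif20a (1449207_a_at), a midzone kinesin, had 1104 and 1142 in E, 1111 and 1048 in M1, 1133 and 935 in M2, 110.0 and 104 in M3, and 576 and 636 in M4. E, M1 and M2 overlapped, and M3 was lower by -3.06 ± 0.15. The midzone crosslinker Prc1 stood at -2.54 in M3, Ect2, the exchange factor that activates RhoA at the cleavage furrow, at -1.97, and the ring scaffold anillin (Anln) at -1.42. Anln was 0.77 above E in M1, short of 2-fold.

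The 5 genes of chromosome structure included the member with the largest change. Mki67 (1426817_at), which coats mitotic chromosomes and is the usual marker of dividing cells, had signals of 3387 and 3045 in E, 1732 and 1676 in M1, 1665 and 1102 in M2, 102.3 and 101.9 in M3, and 959.5 and 949.7 in M4. All M arrays were below both E arrays. The difference was -0.90 in M1, short of 2-fold, -1.23 in M2, -4.60 ± 0.15 in M3 and -1.72 in M4. Ncaph (1436707_x_at), a subunit of condensin I, which compacts mitotic chromosomes, had 3026 and 2529 in E, 865 and 957 in M1, 1307 and 917 in M2, 159.6 and 183 in M3, and 825 and 848 in M4. It was called lower in all 4 lines, by -1.57, -1.31, -3.79 and -1.69. Smc2 (1448635_at), an ATPase subunit of both condensins, went the other way in 3 lines. It had 1465 and 1316 in E, 2682 and 2677 in M1, 2151 and 1571 in M2, 385 and 404 in M3, and 1952 and 1944 in M4. Its differences of 0.93, 0.40 and 0.48 in M1, M2 and M4 did not reach 2-fold, and M3 was lower by -1.74 ± 0.14. The condensin subunit Ncapg stood at -2.48 in M3, and topoisomerase II alpha (Top2a), which untangles sister chromatids, at -3.36.

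In the other 3 relapse lines most of the 45 genes did not pass the test. In M1, 3 were called lower (background 12.5%) and 1 higher (background 8.6%); the lower ones were Nusap1, Kif23 and Ncaph, and the higher one was Racgap1. In M2, 4 were called lower (background 11.8%), the same 3 genes and Mki67, and 0 higher (background 8.58%). In M4, 8 were called lower (background 20.1%), Cdc25c, Pbk, Cenpf, Kif11, Nusap1, Kif23, Mki67 and Ncaph, and 0 higher (background 6.65%). With the 2-fold minimum, the share called lower was slightly under the background in M2 and M4 and under it in M1. With so few genes called, these shares do not set the 45 apart from all genes. Without the minimum fold, at an unadjusted limma p under 0.05, 15 were lower and 8 higher in M1, 24 and 6 in M2, and 35 and 1 in M4. Over all genes the shares were 33.7% and 20.8% in M1, 35.1% and 19.6% in M2, and 49.5% and 13.4% in M4. At that threshold the share lower among the 45 was above that of all genes in M2 and M4 and near it in M1. Both arrays of the line lay below both E arrays for 24 genes in M1, 27 in M2 and 39 in M4, and for 43.8%, 41.6% and 58.8% of all genes. Counted over the 4 lines at the deposited scaling, 37 of the 45 genes were called lower in M3 only (5.26% of all genes). A further 4 were called in M3 and M4 only (Cdc25c, Pbk, Cenpf and Kif11, 2.46% of all genes). Mki67 was called in 3 lines (2.82%), and Nusap1, Kif23 and Ncaph in all 4 (9.02%). The highest line mean belonged to E for 27 genes (45.6% of all genes), to M1 for 14 (21.6%) and to M2 for 4 (Incenp, Nuf2, Ect2 and Top2a, 14.2%).

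These small differences moved with the scaling of the arrays. The median of all genes for the relapse lines' mean against E was -0.21 at the deposited scaling, 0.04 with quantile normalization, 0.00021 with scaling to hybridization controls and -0.03 with median centring. The median of the 45 genes in M4, -0.59 as deposited, was -0.0095, -0.078 and -0.36 in that order, that in M2, -0.31 as deposited, was -0.15, -0.038 and -0.19, and that in M3 was -2.26, -2.43 and -2.52. With these 3 scalings M1 had 2 genes lower (Kif23 and Ncaph) and 2 higher (Racgap1 and Smc2). In M4, 4 genes were lower with the first 2 of these (Nusap1, Kif23, Mki67 and Ncaph), and Smc2 was higher. With median centring 5 were lower in M4, the same 4 and Cdc25c, and 0 higher. The M4 calls of Pbk, Cenpf and Kif11 were thus made at the deposited scaling only. Kif23 and Ncaph were lower in all 4 relapse lines under all 4 scalings. Nusap1 was not called in M1 under the 3 alternative scalings, nor in M2 with quantile normalization or scaling to hybridization controls. Mki67 was not called in M2 with scaling to hybridization controls.

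**Figure D4:**
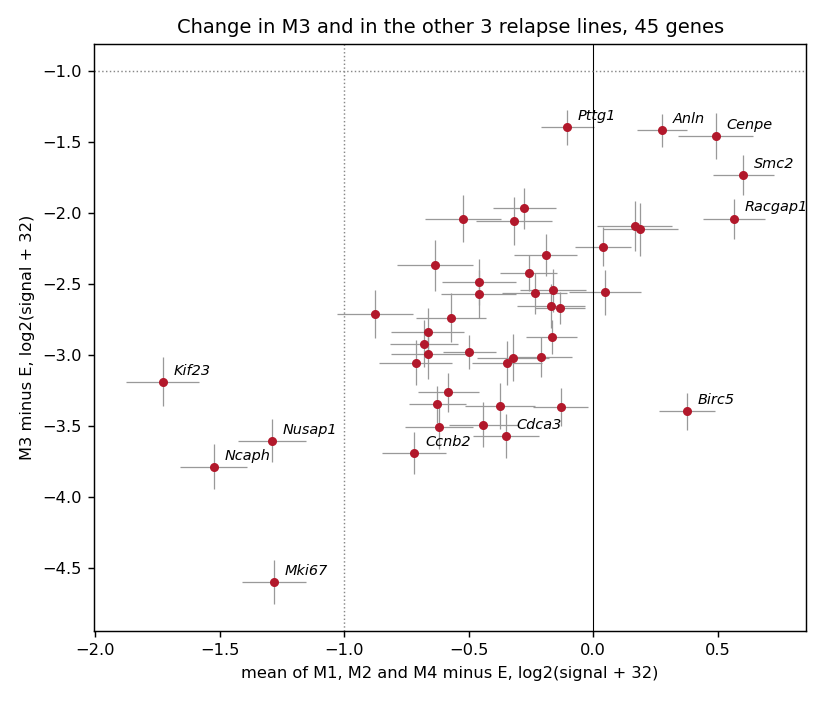
Difference from line E in M3 (vertical axis) and in the mean of M1, M2 and M4 (horizontal axis) for the 45 genes, in log2(signal + 32); bars are standard errors from limma, dotted lines mark 2-fold, and both axes share the 2 E arrays. All 45 genes lie below -1 on the vertical axis and 4 lie left of -1 on the horizontal one (Nusap1, Kif23, Mki67 and Ncaph), while Birc5, at 0.38 and -3.40, lies to the right of 0.

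Averaged over the 4 relapse lines, 20 of the 45 genes were called lower than in E (background 14.5%) and 0 higher (background 7.34%), with a median of -0.96 against -0.21 for all genes. At an unadjusted limma p under 0.05, 41 were lower and 0 higher, against 45% and 18.5% of all genes. The largest mean differences were those of Mki67, at -2.11 ± 0.12 (SE), Kif23, at -2.09 ± 0.14, Ncaph, at -2.09 ± 0.12, and Nusap1, at -1.87 ± 0.12, and the limma adjusted p of these 4 was at most 9.25e-19. The mean rested largely on M3. In the mean of M1, M2 and M4 minus E, 4 of the 45 were called lower (background 13.5%), Kif23 by -1.73, Ncaph by -1.52, Nusap1 by -1.29 and Mki67 by -1.28, and the median was -0.35 against -0.19 for all genes. With scaling to hybridization controls 2 of these were called, Kif23 and Ncaph, and the median was -0.041, and with quantile normalization the same 4 were called and the median was -0.024. Ccnb2 went from -1.46 to -0.72, Bub1 from -1.34 to -0.62 and Aurkb from -1.12 to -0.37. Birc5 turned from -0.57 to 0.38 and Racgap1 from -0.09 to 0.57, both short of 2-fold. Cenpe and Smc2 had mean differences of 0.0041 ± 0.13 and 0.019 ± 0.11 over the 4 lines, where 3 lines above E and 1 below it offset each other. The scaling also mattered here: 7 genes were called lower in the mean with quantile normalization, 7 with scaling to hybridization controls and 14 with median centring. When limma was fitted to the 5 line means, which counts lines and not arrays, 0 of the 45 were called and the lowest limma adjusted p among them was that of Kif23 (adjusted p = 0.135), with 3 residual degrees of freedom, while 1572 of all genes were called. At an unadjusted limma p under 0.05 in that fit, 1 of the 45 was lower.

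The genes were also read through all their probe sets. The 45 genes had 102 probe sets with their single symbol, of which 95 passed the filter on low values. Of these 95, 79 were called lower in M3, 16 were not called and 0 were higher, against 17% of all 32978 kept probe sets called lower. The 16 that were not called had mean signals of at most 83.2 in E. Of the 29 genes with more than 1 kept probe set, 18 had all of them called lower in M3 and 11 had some called and some not. Outside M3 some genes changed side with the probe set. The second kept probe set of Kif23, with a mean of 339.5 in E, was at -0.72 in M1 and -0.89 in M2, short of 2-fold, and at -2.11 in M4. A dim second probe set of Nusap1 (87.1 in E) was not called in M1, M2 or M4. Another probe set of Cenpa (107.4 in E) was called lower in M1 as well as in M3, by -1.14 in M1. The dimmer probe sets of Cenpf (83.2 and 34.55 in E) were not called in M4, at -0.70 and -0.35. The other kept probe sets of Kif11 (578 and 315 in E) were not called in M4, at -0.87 and -0.83. A second probe set of Tpx2 (497 in E) was called lower in all 4 lines, by -1.003, -1.31, -2.56 and -1.55. Both probe sets of Ncaph were called lower in all 4 lines, and the second of Racgap1 was called higher in M1, by 1.34.

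Other genes of cell division were read from 6 lists that hold none of the 45 genes. These lists were chosen with earlier results of these data known, so they are no independent support for the result in M3. Their counts stand against the 19.8% of all genes called lower in M3 and the 14.5% called lower in the mean. No gene of any list was called higher in M3 or in the mean of the M lines. At an unadjusted limma p under 0.05, 1 gene of the kinetochore list and 1 of the spindle list were higher in M3. In the mean, 1 gene each of the kinetochore, spindle and anaphase-promoting complex lists was higher at that threshold. Zwint, of the kinetochore list, was above E in all 4 relapse lines, by 0.63 to 1.10, and was called higher in M2. Cit, of the spindle list, was called higher in M4, by 1.02. Of 24 DNA replication genes, 23 were called lower in M3 and 16 in the mean, with medians of -2.61 and -1.08; Cdt1, which loads the replicative helicase, was the one not called, at -0.65. Thymidine kinase (Tk1) had -4.92 ± 0.15 in M3 and -1.86 in the mean, the ribonucleotide reductase subunit Rrm2 -4.28 ± 0.11 and -1.64, and the replication factor Mcm10 -3.11 ± 0.17 and -1.63. Of 19 genes of mitotic entry control and transcription, 16 were called lower in M3 and 8 in the mean; the transcription factor Mybl2 had -3.14 in M3, the Cdk1-inhibiting kinase Wee1 -2.71 and the Aurka cofactor Bora -2.17. Ccnb1 had no probe set with that single symbol.

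Of 27 genes of the spindle, centrosome and midbody, 22 were called lower in M3 and 8 in the mean. Psrc1, a microtubule-associated protein, had -1.36 in M3 and -1.87 in the mean, so that M3 was not its lowest line, while Fam83d and the spindle pole protein Aspm had -3.17 and -2.69 in M3. Of 30 kinetochore and centromere genes, 24 were lower in M3 and 5 in the mean, the latter near the share over all genes, among them Cenpk (-3.17 in M3), Cenpp (-2.24) and Spc24 (-2.01). With quantile normalization the 24 became 14. Of 15 condensin and cohesin genes, 9 were lower in M3 and 4 in the mean, with Cdca5 (sororin, which guards cohesion) at -3.79 and the condensin subunits Ncapd2 and Ncapd3 at -2.93 and -2.89 in M3. The anaphase-promoting complex and its regulators held the fewest calls, 5 of 15 in M3 and 2 in the mean, the latter under the share over all genes. Those 2 were Anapc2, a core subunit, at -2.20 in M3, and Fbxo5 (Emi1), an inhibitor of the complex, at -3.36. The M3 medians of the 6 lists ran from -0.68 for this list to -2.61 for DNA replication, against -0.25 for all genes.

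**Figure D5:**
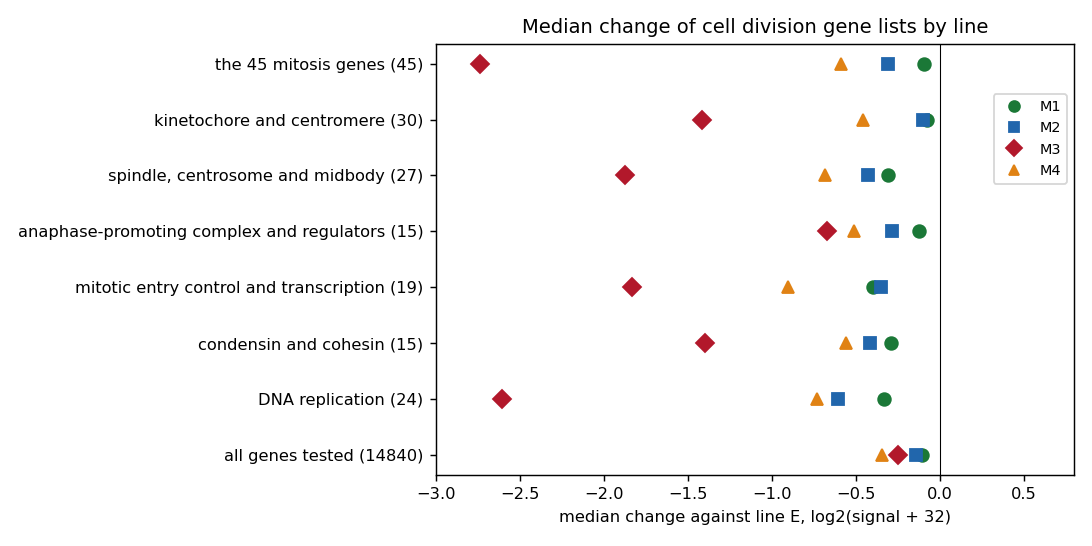
Median difference from line E, in log2(signal + 32), for the 45 mitosis genes, 6 further lists of cell division genes and all genes tested, with the number of genes in brackets; markers are the 4 relapse lines. The M3 diamond is leftmost in every gene list, from -2.74 for the 45 genes to -0.68 for the anaphase-promoting complex, while for all genes M4 is leftmost at -0.35.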

How the data were processed

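Signals of 45101 probe sets were read for 10 arrays, 2 for each of 5 cell lines. The deposited values are intensity on a linear scale. The submitters' processing notes name GCOS 1.3, and neither the signal algorithm nor the scaling nor a background step is given in the sources used here. The 64 control probe sets were left out. Of the rest, 34958 had 1 gene symbol in the platform's annotation and 932 had several, and only the former were used.

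A pseudocount of 32 was added before log2. Probe sets were kept (32978) where 2 or more arrays had them above the array's 40th percentile, and the one with the highest mean signal stood for each of 14840 genes. The deposited scaling was kept. limma 3.58.1 in R 4.3.3 was fitted with 1 mean per line (lmFit, eBayes with a trend), which left 5 residual and 41.4 prior degrees of freedom, and Benjamini-Hochberg adjustment ran over all genes. Where a sentence gives a count of called genes, the test is that of limma at an adjusted p of 0.05 and 2-fold. The number of arrays limits the precision.

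Genes given array by array were the 2 of each role group with the largest mean change, any called higher in a relapse line, the 3 with the widest range over the relapse lines and the 3 with the smallest mean change. From each further list, up to 3 called genes with the largest mean change were named. Alternatives covered scaling, pseudocount, filter, choice of probe set, a replicate block, each array and each line left out, and a fit to line means. The members and lists were chosen with earlier results of these data known. Promoters were scanned with Python 3.11.15.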

Additional observations from a re-analysis of the deposited data

Results flagged for a closer look

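Each of the 20 genes given array by array differed between relapse lines in limma's moderated F test across M1 to M4, the test of the difference itself, as did 22.4% of all genes. All 20 had been picked from values of these same lines. The rules were the size of the mean change, a call in a relapse line and the range over M1 to M4. Birc5, Mki67 and Cdca3 met the rule on range. The test is therefore no independent support for any of the 20. In every one of them M3 had the lowest line mean, and the differences below are those between the highest and the lowest of the 4 line means, on the log2 scale. The widest was that of Birc5, at 4.01, followed by Mki67, at 3.70, Cdca3, at 3.47, Aurkb, at 3.31, and Racgap1, at 3.25. Ccnb2 had 3.11, Bub1 3.03, Kif20a 3.00, Cenpa 2.94 and Kif11 2.74. Smc2 had 2.67, Ube2c 2.64, Nusap1 2.51, Bub1b 2.50, Ncaph 2.47 and Cenpf 2.42. The smallest of the 20 were Cdca8, at 2.38, Cenpe, at 2.17, Cdc25c, at 2.07, and Kif23, at 2.00.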

How the results depend on the processing

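Across 24 alternative settings, the count of genes called lower in M3 stayed between 43 and 45 where it was computed, and the count across M lines was 45 in each. The count for the mean of the M lines, 20, became 7 with quantile normalization, 7 with hybridization controls, 32 without line M1, 4 without line M3 and 0 in the fit to 5 line means; without single arrays it was 18 to 23. In M1, the mean of all probe sets of a gene gave 1 lower (3 at the settings reported). Genes higher in M1, 1 as reported, were 2 with quantile normalization, hybridization controls or median centring, and 1 to 2 without single arrays. In M2, 4 lower became 2 with hybridization controls. In M4, 8 lower became 4, 4 and 5 with the quantile, control and median scalings, and 0 higher became 1 with the quantile and control scalings. Kinetochore and centromere genes lower in M3 went from 24 to 14 with quantile normalization.

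Signs turned for 4 named genes in the mean of the M lines. Racgap1 (-0.09) became 0.26, 0.22 and 0.088 with the quantile, control and median scalings and 0.57 without line M3, and ran from -0.18 to 0.0040 without single arrays, with the highest value without E replicate 1. Birc5 (-0.57) became 0.38 without line M3. Cenpe (0.0041) became -0.011 with a pseudocount of 16, -0.059 with the mean of probe sets, and -0.23, -0.20 and -0.043 without lines M1, M2 and M4; without single arrays it ran from -0.11 to 0.12. Smc2 (0.019) became -0.29, -0.11 and -0.13 without lines M1, M2 and M4, and ran from -0.057 to 0.094 without single arrays. Apart from the left-out samples, the cause of these shifts was not tested.

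Arrays of equal replicate number did not deviate together (r from -0.07 to 0.06 over 10 pairs of lines). These correlations do not show how the arrays were grown or run. A batch shared by both arrays of a line would not appear in them, and such batches were not tested. With the replicate number as a block, 20 genes were again called lower in the mean and 45 in M3. The choice of the probe set with the highest mean log2 value was added after the data had been seen. Mean M3 signals of the 45 genes went down to 43.7, near the pseudocount, which limits the size of such changes.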
